A study of Arabidopsis thaliana with 12 samples.

Results

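Chitinases cut chitin, the polymer of fungal cell walls and of insect cuticle. In plants many of them are secreted or vacuolar defence proteins, and the chitin fragments they release are sensed at the cell surface as a sign of infection. Most plant chitinases belong to the glycoside hydrolase families GH19 and GH18, and several GH19 genes are used as markers of immune activation. Described here are 3 chitinase family genes of Arabidopsis thaliana: CHI (AT2G43570), AT2G43580 and AT3G47540. They were chosen as the probe sets that name only these genes in the platform's probe-to-gene table, which gave 1 probe set per gene, or 3 of the 22746 probe sets for genes. The name CHI here stands for the chitinase gene AT2G43570 and not for chalcone isomerase, which carries the same abbreviation as a synonym.

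The data are 12 Affymetrix ATH1 arrays, 1 colour each, of RNA from whole Col-0 seedlings aged 12 days, grown on plates and moved to 6-well plates for treatment. The groups of 3 arrays were ABA+DFPM (10 µM abscisic acid and 30 µM DFPM for 6 h, with DFPM given 30 min before ABA), DFPM (30 µM, 6 h), ABA (10 µM, 6 h) and a solvent control with DMSO at 1 part in 5000. DFPM is a synthetic furan compound with a dichlorophenyl group and a piperidine ring, known to interfere with responses to ABA, the hormone of drought and seed dormancy, and to act through components of plant immune signalling. All groups share the ecotype, age and transfer, and no treatment time is stated for the control.

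The genes were chosen as raised by DFPM, so their difference between DFPM and control is given as a description, with no test. Which contrast served the choice is not recorded. The difference between ABA+DFPM and ABA uses other arrays, but it may have entered the choice as well, so the limma p-values given for CHI and AT3G47540 are not independent evidence. ABA against control shares the control arrays with the choice, and ABA+DFPM against DFPM shares the DFPM arrays. The data go against the label for AT2G43580, which lay at or near the bottom of the array scale with DFPM alone and passed log2 4 only in ABA+DFPM arrays. It may have been chosen for that, so it is described without any test.

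Levels are log2 expression values and changes are log2 fold changes ± SE from limma fitted to the 14401 probe sets that reached log2 4 on at least 3 arrays, with p-values adjusted by the Benjamini-Hochberg method. In every group the array numbered 3 stood apart, with r of 0.875 to 0.920 to the other arrays of its group against 0.987 to 0.992 between numbers 1 and 2. The labels name no separate cultures, so a p-value here speaks of the spread among these arrays, possibly technical, and their number limits the precision. In RNA of whole seedlings, more cells of a type and more RNA per cell cannot be told apart. The lowest value on the arrays was 2.14 and the highest 15.6. The 3′ minus 5′ difference of the actin control, a measure of RNA integrity, was 4.27 to 4.68 in ABA+DFPM, 4.86 to 5.05 in DFPM, 4.56 to 4.63 in ABA and 4.86 to 5.30 in control arrays. It was smaller for 2 other controls. In the same order of groups the ubiquitin control gave 0.73 to 0.97, 1.04 to 1.25, 0.61 to 0.82 and 1.03 to 1.29. The GAPDH control gave 1.05 to 1.27, 0.91 to 1.22, 1.24 to 1.32 and 1.09 to 1.31. The part of RNA integrity in the results was not tested.

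CHI was lowest in control seedlings, higher with either compound and highest with both. Its log2 levels were 13.47, 13.24 and 14.21 on the ABA+DFPM arrays numbered 1, 2 and 3, and 11.01, 11.08 and 12.78 on the DFPM arrays. They were 8.84, 8.76 and 11.02 on the ABA arrays, and 2.81, 2.59 and 6.90 on the control arrays. All ABA+DFPM arrays lay above all others and all control arrays lay below all others. The ABA and DFPM groups met at their edges, where the highest ABA array and the lowest DFPM array differed by less than the spread within either group. Group means were 13.64 ± 0.51 in ABA+DFPM, 11.62 ± 1.00 in DFPM, 9.54 ± 1.28 in ABA and 4.1 ± 2.43 in control seedlings (SD, n = 3 each). In every group the array numbered 3 was the highest for CHI. The control arrays numbered 1 and 2 lay below log2 3, near the lowest value of the arrays, so the size of each CHI difference from control rests on the background correction.

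AT3G47540 was high in both groups given DFPM and low in both without it. Its log2 levels were 10.29, 10.88 and 12.62 on the ABA+DFPM arrays and 11.40, 11.58 and 12.85 on the DFPM arrays. They were 5.85, 6.18 and 7.48 on the ABA arrays and 4.87, 4.86 and 7.42 on the control arrays. The 6 arrays with DFPM lay above the 6 without it, with no overlap. ABA+DFPM (mean 11.27 ± 1.21) and DFPM arrays (11.94 ± 0.79) overlapped, and so did ABA (6.51 ± 0.86) and control arrays (5.72 ± 1.47; SD, n = 3 each). Within each array number, however, ABA+DFPM lay below DFPM and ABA lay above control.

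AT2G43580, the gene next to CHI on chromosome 2, passed log2 4 only where both compounds were given. Its log2 levels were 4.83, 4.76 and 5.11 on the ABA+DFPM arrays. They were 2.16, 2.16 and 2.56 on the DFPM arrays, 2.16, 2.14 and 2.16 on the ABA arrays and 2.14 on each of the control arrays. The other 3 groups thus lay at or just above the lowest value of the arrays, where the background correction sets the value, and the ABA+DFPM group stood clear of them. This probe set passed the filter on low values through its 3 ABA+DFPM arrays alone.

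**Figure D1:**
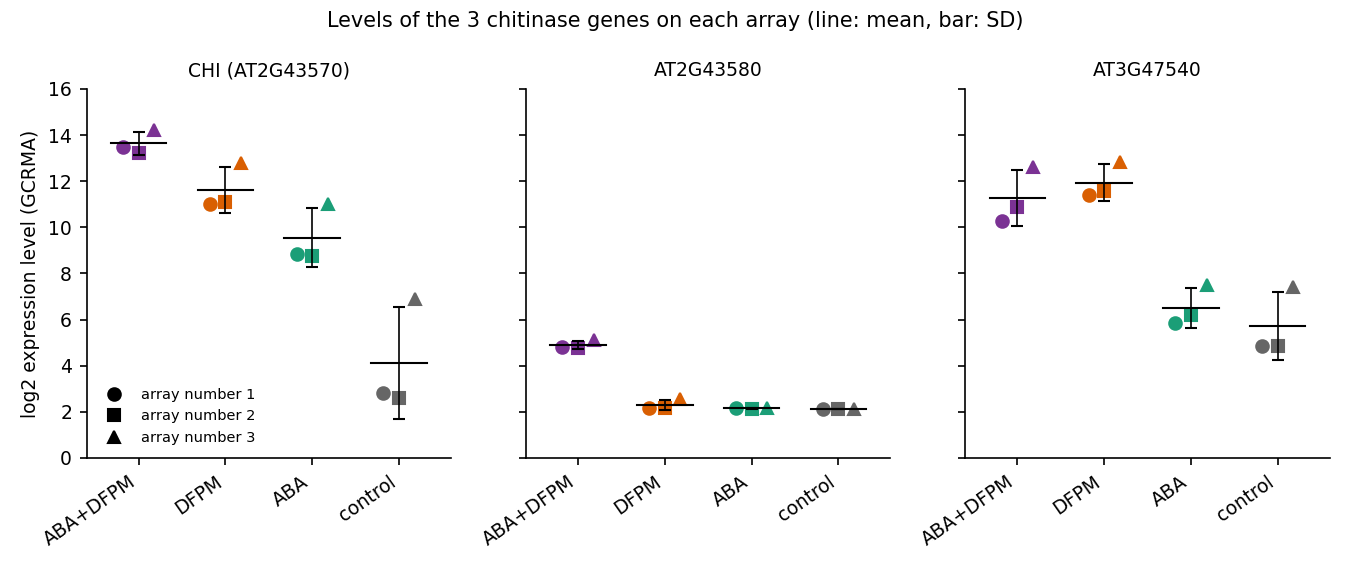
Log2 expression level (vertical axis) of CHI, AT2G43580 and AT3G47540 on each of the 12 arrays, by group (horizontal axis), with 1 symbol per array number, a line for the group mean and a bar for its SD. CHI steps down from a mean of 13.64 in ABA+DFPM to 4.1 in control arrays, AT2G43580 passes log2 4 only in ABA+DFPM arrays, and AT3G47540 is high in both groups given DFPM.

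ABA+DFPM against ABA shows what DFPM did to these genes where the hormone was present. AT3G47540 rose by 4.76 ± 0.82, or 27.1-fold (n = 3 arrays per group, limma, adjusted p = 0.0053, 95% interval 2.94 to 6.59). CHI rose by 4.1 ± 1.08, or 17.1-fold (limma, adjusted p = 0.0351, 95% interval 1.69 to 6.51). Of all tested probe sets 6.64% rose in this comparison. Within arrays of the same number the ABA+DFPM level of AT3G47540 exceeded the ABA level by 4.44, 4.70 and 5.14, and that of CHI by 4.63, 4.47 and 3.19. The direction held in 3 of 3 numbers for both genes, which any pairing would give, since the 2 groups did not overlap. The call of AT3G47540 held without any single array, with adjusted p up to 0.0263. That of CHI was lost without ABA replicate 1 or 2, DFPM replicate 1 or 2 or any ABA+DFPM array, with adjusted p up to 0.120, and with no filter on low values (0.0813).

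With the arrays numbered 3 left out of all groups, a choice made after seeing the data, CHI was higher in ABA+DFPM than in ABA seedlings by 4.55 ± 0.14 and AT3G47540 by 4.57 ± 0.22 (n = 2 per group). AT2G43580 differed by 2.75 ± 0.17 between the same groups, with 2.67, 2.62 and 2.95 in numbers 1, 2 and 3. Since its ABA level is at the bottom of the scale, the size of that difference rests on the background correction.

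Without ABA, the DFPM differences of CHI and AT3G47540 were larger in value than with it, and that of AT2G43580 was near 0. DFPM seedlings exceeded control seedlings by 7.52 ± 1.08 for CHI (2 of its 3 control arrays near background), with 8.20, 8.49 and 5.88 in the 3 array numbers, and by 6.22 ± 0.82 for AT3G47540, with 6.53, 6.72 and 5.43. For AT2G43580 the difference was 0.16 ± 0.17, with 0.02, 0.02 and 0.42 in numbers 1, 2 and 3. In this comparison 12.7% of all tested probe sets rose. The DFPM difference with ABA minus that without was -3.43 ± 1.53 for CHI, -1.46 ± 1.16 for AT3G47540 and 2.59 ± 0.23 for AT2G43580. These values hold the contrast of the label and are given as a description.

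ABA alone raised CHI and did not pass the test for AT3G47540. CHI rose by 5.44 ± 1.08 over control, a size that the near-background control arrays leave uncertain (n = 3, limma, adjusted p = 0.0047, up to 0.0222 with 1 array left out), against 14.6% of all tested probe sets that rose. The CHI difference was 6.03, 6.17 and 4.12 within the 3 array numbers. AT3G47540 gave 0.79 ± 0.82 (limma, adjusted p = 0.517, 95% interval -1.04 to 2.61), with 0.98, 1.31 and 0.06 in the array numbers, and adjusted p = 0.0322 with the replicate number as a block, or 0.239 with that block and numbers 1 and 2 averaged. Without the arrays numbered 3 it was 1.15 ± 0.22. AT2G43580 was the same at the bottom of the scale in both groups (0.02 ± 0.17). The control arrays also entered the choice of the genes, so these differences are not independent of it.

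When DFPM was already present, adding ABA went with opposite signs for CHI and AT3G47540, and neither passed. CHI was 2.01 ± 1.08 higher in ABA+DFPM than in DFPM seedlings (n = 3, limma, adjusted p = 0.244, 95% interval -0.39 to 4.42), with 2.46, 2.16 and 1.43 in the array numbers and adjusted p = 0.0239 with the replicate number as a block, or 0.185 with that block and numbers 1 and 2 averaged. AT3G47540 gave -0.68 ± 0.82 (limma, adjusted p = 0.633, 95% interval -2.50 to 1.15), with -1.11, -0.70 and -0.22 in the array numbers. Without the arrays numbered 3 the values were 2.31 ± 0.14 (adjusted p = 3.13e-05) and -0.90 ± 0.22 (adjusted p = 0.0106). AT2G43580 differed by 2.61 ± 0.17. Of all tested probe sets 8.04% rose and 6.19% fell in this comparison.

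**Figure D2:**
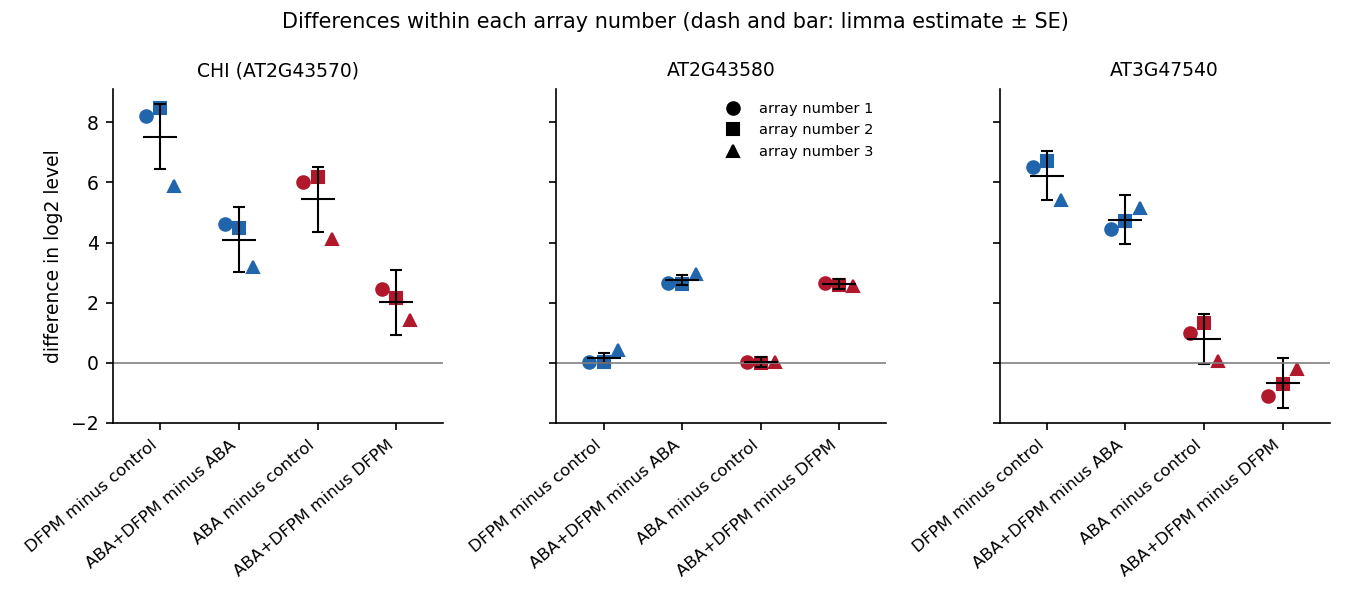
Differences in log2 level (vertical axis) for the 3 genes in 4 comparisons (horizontal axis), with 1 symbol per array number and a dash and bar for the limma estimate and its SE. Differences with DFPM are blue and those with ABA red. For CHI all 4 differences are above 0 in each array number, and for AT3G47540 the differences with DFPM run from 4.44 to 6.72 while those with ABA lie between -1.11 and 1.31.

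Against control, seedlings given both compounds held CHI 9.54 ± 1.08 higher, AT3G47540 5.55 ± 0.82 higher and AT2G43580 2.76 ± 0.17 higher. The control array numbered 3, at 6.90, set the CHI difference for that number at 7.31, against 10.66 and 10.65 in numbers 1 and 2.

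CHI and AT2G43580 open a run of 6 chitinase genes on chromosome 2 that RefSeq's annotation TAIR10.1 lists in order from AT2G43570 to AT2G43620, with 2 other genes inside the run. AT3G47540 lies apart, on chromosome 3. In ABA+DFPM over ABA the values of AT2G43610 and AT2G43620 were 0.75 ± 0.47 (limma, adjusted p = 0.330, with the replicate number as a block 0.0041) and 2.26 ± 1.27 (adjusted p = 0.283, with the block 0.0056). Under that block neither passed once numbers 1 and 2 were averaged (0.0669 and 0.0842). No difference between neighbours was tested. AT2G43590, the third gene of the run, rose by 2.64 ± 0.55 with DFPM over control (n = 3, limma, adjusted p = 0.0079) and by 3.51 ± 0.55 in ABA+DFPM over ABA (adjusted p = 0.0033), and gave -1.29 ± 0.55 with ABA over control (adjusted p = 0.106, with the replicate number as a block 0.0079). AT2G43600, the fourth, did not pass the filter: it reached log2 4 on 1 of 12 arrays, with 2.26 to 2.58 on all treated arrays and 3.25, 3.40 and 4.43 on the control arrays. AT2G43610 fell by 1.53 ± 0.47 with ABA over control (adjusted p = 0.0333, lost without any 1 control array or ABA replicate 1 or 2, up to 0.123) and gave -0.40 ± 0.47 with DFPM (adjusted p = 0.556, with the replicate number as a block 0.0366). AT2G43620 gave 1.2 ± 1.27 with DFPM and -1.67 ± 1.27 with ABA, neither past the test (adjusted p = 0.518 and 0.360, with the replicate number as a block 0.0486 and 0.0122), and unlike its neighbours was lowest on the array numbered 3 of every group. With numbers 1 and 2 averaged under the block, both AT2G43620 calls were lost (limma, adjusted p = 0.220 and 0.123). So were those of AT2G43610 with DFPM (0.223) and AT2G43590 with ABA (0.0783). The fall of AT2G43610 with ABA (0.0077) and the rises of AT2G43590 over control (0.0118) and over ABA (0.0093) passed there.

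A list of 24 chitinase genes, the 3 described here and 21 others, was drawn up from general knowledge of the family, since the gene tables hold symbols and no descriptions. Of the 21 others 12 had a probe set of their own and 6 passed the filter, 5 of family GH19 and 1 of family GH18. The other 9 are not analysed here. Of the 6, 3 rose and 0 fell with DFPM over control, beside 12.7% and 11.4% of all tested probe sets, and 3 rose and 0 fell in ABA+DFPM over ABA, beside 6.64% and 5.96%. With ABA over control 1 rose and 2 fell, beside 14.6% and 14.3%. At an unadjusted p under 0.05 the counts with DFPM and in ABA+DFPM over ABA were again 3 and 0, and with ABA they were 1 and 4. The share of all tested probe sets at that threshold is not given here, so these unadjusted counts cannot be set against it. With the replicate number as a block 4 rose and 1 fell with DFPM, beside 47.4% of all tested probe sets called in either direction, 5 rose in ABA+DFPM over ABA, beside 31.2%, and 1 rose and 5 fell with ABA, beside 48.5%. With that block and numbers 1 and 2 averaged, 3 rose with DFPM (24.1% of all called), 3 rose in ABA+DFPM over ABA (9.61%), and 1 rose and 3 fell with ABA (23.4%). The median change of the 6 was 1.92 with DFPM, 2.88 in ABA+DFPM over ABA and -1.60 with ABA, and that of all tested probe sets was -0.08, -0.09 and -0.09.

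The same 3 genes rose in both comparisons with DFPM: AT2G43590, AT1G02360 and AT4G01700, all of family GH19. AT1G02360 had log2 levels of 8.70, 8.83 and 10.77 on the ABA+DFPM arrays, 10.48, 10.80 and 11.34 on the DFPM arrays, 3.74, 3.85 and 5.35 on the ABA arrays and 6.44, 6.02 and 7.85 on the control arrays. It was thus lowest with ABA alone, and its ABA arrays overlapped with no other group. It rose by 4.1 ± 0.67 with DFPM over control (limma, adjusted p = 0.0024) and by 5.12 ± 0.67 in ABA+DFPM over ABA (adjusted p = 0.0013). With ABA over control it fell by 2.46 ± 0.67 (adjusted p = 0.0208, lost without control replicate 3 or ABA replicate 1 or 2, up to 0.0839).

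AT4G01700 had log2 levels of 10.61, 10.63 and 12.60 on the ABA+DFPM arrays, 12.45, 12.26 and 13.33 on the DFPM arrays, 6.62, 6.42 and 9.63 on the ABA arrays and 9.48, 9.14 and 11.08 on the control arrays. Here the ABA and control groups overlapped, and so did ABA+DFPM and control. It rose by 3.72 ± 0.89 in ABA+DFPM over ABA (limma, adjusted p = 0.0238, lost without ABA replicate 1 or 2 or ABA+DFPM replicate 3, up to 0.0931). With DFPM over control it rose by 2.78 ± 0.89 (adjusted p = 0.0470, lost without any 1 of 9 arrays, the DFPM arrays among them, up to 0.150). With ABA over control it gave -2.34 ± 0.89 (adjusted p = 0.0752, with the replicate number as a block 0.0010).

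ChiC (AT4G19810), a chitinase of family GH18, was high in both groups given ABA. Its log2 levels were 12.34, 12.35 and 12.56 on the ABA+DFPM arrays, 9.65, 9.51 and 9.63 on the DFPM arrays, 12.46, 12.14 and 13.49 on the ABA arrays and 8.45, 8.03 and 10.69 on the control arrays. The 6 arrays with ABA all lay above the 6 without it. ChiC rose by 3.64 ± 0.59 with ABA over control (limma, adjusted p = 0.0016) and by 2.82 ± 0.59 in ABA+DFPM over DFPM (adjusted p = 0.0131), the only 1 of the 6 to pass there, beside 8.04% of all tested probe sets that rose. With the replicate number as a block 2 others fell, beside 35.2% called in either direction, and with that block and numbers 1 and 2 averaged ChiC lost its call (adjusted p = 0.0555, 5.65% of all called). Its DFPM changes were 0.54 ± 0.59 over control (adjusted p = 0.538) and -0.28 ± 0.59 in ABA+DFPM over ABA (adjusted p = 0.795). The first of these changed with the control array numbered 3: it was 1.2, 1.47 and -1.06 in the array numbers and 1.35 without that array (adjusted p = 0.0239). CHI was high in both the ABA and the DFPM groups, whereas AT3G47540 was set apart by DFPM and ChiC by ABA.

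**Figure D3:**
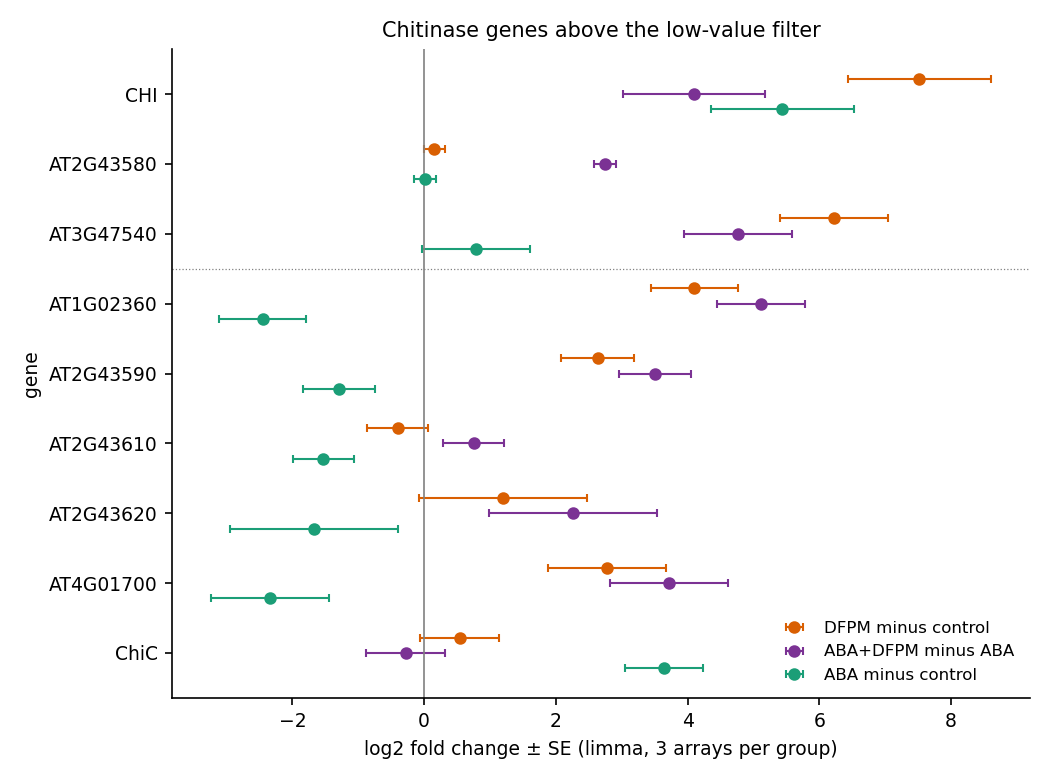
Log2 fold change ± SE (horizontal axis, limma, 3 arrays per group) of the 9 chitinase genes that passed the low-value filter (vertical axis), the 3 genes described here above the dotted line, for DFPM over control, ABA+DFPM over ABA and ABA over control. CHI and ChiC rose with ABA by 5.44 and 3.64, while the other genes under the dotted line have ABA changes from -2.46 to -1.29.

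**Figure D4:**
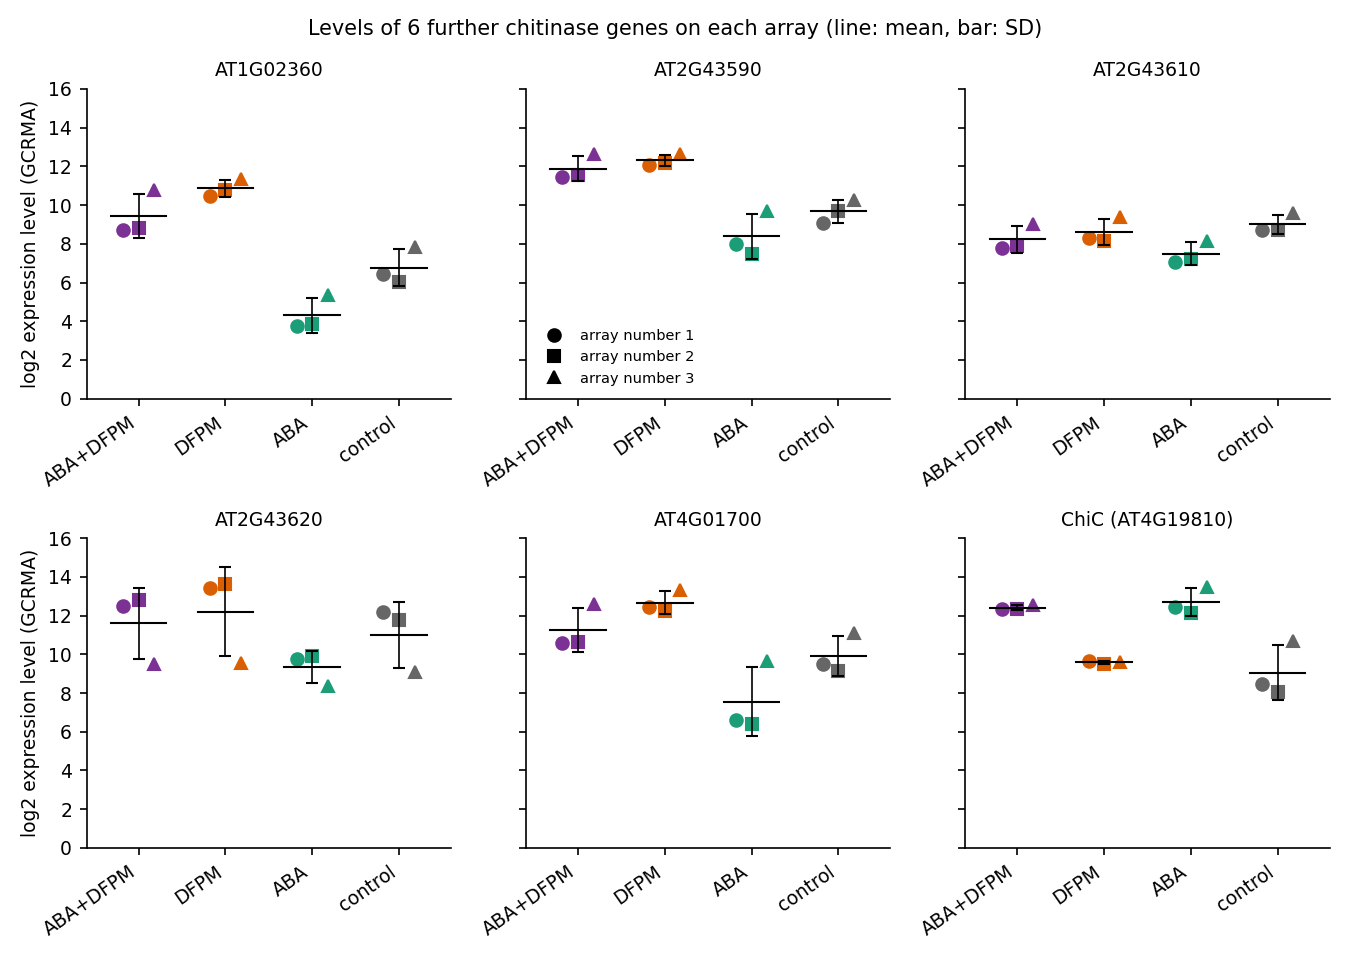
Log2 expression level (vertical axis) of 6 further chitinase genes on each array by group (horizontal axis), with 1 symbol per array number, a line for the mean and a bar for the SD. AT1G02360, AT2G43590, AT2G43620 and AT4G01700 have their highest mean in the DFPM group and their lowest in the ABA group, and ChiC lies between 12.14 and 13.49 on the arrays given ABA.

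Of the 6 further chitinase genes that did not pass the filter, AT4G19720 reached 7.77 on the DFPM array numbered 3 and at most 3.78 elsewhere, and AT1G56680 reached 5.76 on the control array numbered 3 and at most 3.38 elsewhere. AT4G19730, AT4G19740 and AT4G19820 stayed between 2.14 and 2.24 on all 12 arrays.

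The genes whose levels followed each chitinase most closely were ranked by Pearson's r over the 12 arrays among 7704 other probe sets of 1 gene, as a description, since the arrays share their treatments and their array numbers. AT1G10410, AT1G33110, the subtilase gene SBT3.5, AT2G19710 and AT2G32190 were closest to CHI, with r from 0.977 to 0.983. AT4G22530, AT1G34420, AT1G57630, the glycosyltransferase gene UGT73B4 and AT1G26380 were closest to AT3G47540, with r from 0.989 to 0.993. UGT73B4 averaged 8.89 in ABA+DFPM, 9.59 in DFPM, 4.88 in ABA and 3.83 in control arrays. AT2G47820, AT5G47430, AT5G52390, AT3G60110 and AT1G13310 were closest to AT2G43580, with r from 0.918 to 0.943, which the ABA+DFPM arrays set, since it was near the bottom of the scale on all others. AT3G47540 was in position 274 for CHI (r = 0.852).

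Of 37 genes in 4 other defence lists (chitin perception, other pathogenesis-related proteins, salicylic acid immunity, and ethylene and jasmonate defence) 5 had a probe set of their own above the filter. In ABA+DFPM over ABA 0 of the 5 passed (limma), where 6.64% of all tested probe sets rose and 5.96% fell. An unadjusted p under 0.05 was found for 3, a count for which no share of all probe sets is given here. With the replicate number as a block 2 passed, beside 31.2% of all tested probe sets. With that block and numbers 1 and 2 averaged 1 passed, GRX480, beside 9.61%. The glutaredoxin gene GRX480 stood at 3.87 ± 1.22 (adjusted p = 0.0660, with the replicate number as a block 6.70e-05) and SAG101, a partner of the immune regulator EDS1, at 0.81 ± 0.27 (adjusted p = 0.0783, with the block 0.0419). The kinase gene BIK1, which relays signals of surface receptors, gave 0.85 ± 0.29 there, the defensin gene PDF1.2 1.26 ± 0.78 and the ethylene signalling gene EIN3 0.05 ± 0.17. With DFPM over control GRX480 (4.01 ± 1.22, adjusted p = 0.0383, lost without any 1 of 7 arrays, up to 0.128) and SAG101 (1.19 ± 0.27, adjusted p = 0.0113, with the block and numbers 1 and 2 averaged 0.0514) rose, as did 12.7% of all tested probe sets. BIK1 and PDF1.2 fell with ABA over control (-1.28 and -2.97, limma, adjusted p = 0.0091 and 0.0178), as did 14.3% of all tested probe sets. They also fell in ABA+DFPM over DFPM (-1.21 and -3.08, adjusted p = 0.0222 and 0.0276), as did 6.19%. With the block and numbers 1 and 2 averaged neither gene passed in either comparison (0.0741 to 0.144).

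Of 5 measured markers of seedling tissues 1, EXPA18, passed in ABA+DFPM over ABA, where 5.96% of all tested probe sets fell. With the replicate number as a block RCA (adjusted p = 0.0384) and EXPA7 (0.0155) also passed there, both lower, beside 31.2% of all tested probe sets called. With numbers 1 and 2 averaged as well, none of the 3 passed (0.0588 to 0.117), beside 9.61%. The mean log2 level of the 2 measured leaf mesophyll genes of 3, RCA and LHCB4.1, was 9.19 to 12.10 in ABA+DFPM, 9.51 to 12.53 in DFPM, 12.03 to 12.83 in ABA and 12.94 to 13.47 in control arrays. That of the 2 measured root genes of 3, EXPA7 and EXPA18, was 4.16 to 5.76 in ABA+DFPM, 5.34 to 5.70 in DFPM, 5.97 to 6.46 in ABA and 6.28 to 6.58 in control arrays. For the leaf mesophyll genes the lowest mean in each group was that of the array numbered 3. RCA stood at 11.43, 11.72 and 8.34 on the ABA+DFPM arrays numbered 1, 2 and 3. It was 12.07, 12.36 and 9.35 on the DFPM arrays and 13.40, 13.41 and 13.18 on the control arrays. LHCB4.1 stood at 12.38, 12.48 and 10.04, at 12.49, 12.70 and 9.68, and at 13.55, 13.41 and 12.69 in the same order. EXPA18 fell by 1.29 ± 0.35 in ABA+DFPM over ABA (limma, adjusted p = 0.0374, lost without any 1 of 8 arrays, up to 0.115). With DFPM over control it fell by 1.17 ± 0.35 (limma, adjusted p = 0.0348, lost without any 1 of 5 arrays, up to 0.0996). In that comparison 11.4% of all tested probe sets fell. The 1 measured guard cell gene of 3, FMA, lay at 4.09 to 7.15 in ABA+DFPM, 5.18 to 7.09 in DFPM, 4.47 to 6.71 in ABA and 5.75 to 7.13 in control arrays. In DFPM over control with the block, RCA (limma, adjusted p = 0.0210), LHCB4.1 (0.0156), EXPA18 (0.0195) and EXPA7 (0.04997) were lower, and FMA (0.511) did not pass. Of all tested probe sets 47.4% were called there in either direction. Averaging numbers 1 and 2 under the block kept EXPA18 (0.04999) and lost RCA (0.0689), LHCB4.1 (0.0584) and EXPA7 (0.174), beside 24.1%. No marker was at the bottom of the scale on any array, and the part of tissue makeup in the chitinase changes was not tested.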

How the data were processed

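RNA of whole seedlings was labelled with biotin and hybridised to 12 arrays, 3 in each of 4 groups taken from the sample titles. The authors deposited log2 expression values per probe set, and GCRMA and affy are the tools that the submitters' processing notes name; versions and settings: not given in the sources used here. Per-array medians lay from 5.15 to 5.60. Of 22810 probe sets, 64 controls were left out, and 14401 that reached log2 4 on at least 3 arrays were tested. Of the 22746 probe sets for genes 13513 named 1 gene in the platform table, 503 several and 8730 none; symbols were updated through RefSeq, assembly TAIR10.1, where 13436 matched.

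Groups were compared with limma 3.58.1 (R 4.3.3) by lmFit and eBayes on all 12 arrays without covariates; tests were two-sided, and a call needs a Benjamini-Hochberg adjusted p below 0.05 over all probe sets kept. The code was tested on simulated data. The members, lists and comparisons were chosen with earlier results of these data known. Named were the 3 members, the other chitinase genes with a probe set of their own, up to 4 called genes of each other list, with genes outside that rule named where a count was 5 or fewer, and the 5 genes most like each member. Alternatives covered the filter, scaling, variance model, samples in the fit and the replicate number as a block. Deviations from group means correlated in all 18 pairs of arrays with the same number in other groups (r of 0.426 up to 0.802). Pairs with unlike numbers were not compared, and the arrays numbered 3 stood apart in every group. These correlations therefore cannot show that numbers 1 and 2 match across groups. Array numbers were treated as pairs only in the replicate block and in the differences within array numbers, not in the main fit. No label says what the numbers stand for. Tables and figures used matplotlib 3.10.9, pandas 2.3.3 and numpy 2.4.6 under Python 3.11.15.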

Additional observations from a re-analysis of the deposited data

Results flagged for a closer look

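The change of AT2G43580 with DFPM was 2.75 ± 0.17 in ABA+DFPM over ABA and 0.16 ± 0.17 in DFPM over control, a difference of 2.59 ± 0.23 on the log2 scale (n = 3 arrays per group). The DFPM, ABA and control arrays lay at or near the lowest value of the scale (2.14 to 2.56), so the size and SE rest on values set by the background correction. The gene was above log2 4 on 3 of 12 arrays, all of the ABA+DFPM group, and passed the filter through them, so no p-value is given and the difference was not tested.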

How the results depend on the processing

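All 369 recomputed changes of the 3 chitinase genes kept their sign, but much of this count was fixed in advance. Fits that alter only the filter, the block, the variance model or the groups not compared return the same difference between 2 groups. The count also holds DFPM over control, the contrast of the label, and AT2G43580 differences between values at the bottom of the scale. The CHI change in ABA+DFPM over ABA (4.1) lost its call with no filter on low values (adjusted p = 0.0813) and spanned 3.71 to 4.84 with 1 array left out. The replicate number as a block changed the calls of CHI in ABA+DFPM over DFPM (2.01, adjusted p = 0.0239) and of AT3G47540 in ABA over control (0.79, adjusted p = 0.0322), and no other call of these 2 genes. Under the block neither passed once numbers 1 and 2 were averaged (adjusted p = 0.185 and 0.239). With the arrays numbered 3 left out, chosen after the data were seen, 3 further tests passed: CHI in ABA+DFPM over DFPM (2.31), AT3G47540 in ABA over control (1.15) and in ABA+DFPM over DFPM (-0.90).

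For AT2G43580 quantile normalization gave 2.91 over ABA, 2.78 over DFPM and 2.93 over control for ABA+DFPM, and centring arrays on their medians gave 2.96 over ABA and 3.05 over control, and 0.32 for DFPM over control. The difference between its DFPM changes with and without ABA was 2.76 under quantile normalization. Centring moved the median of all tested probe sets by 0.21 in ABA+DFPM over ABA, 0.16 in DFPM over control, 0.12 in ABA+DFPM over DFPM and 0.29 in ABA+DFPM over control. The stricter filter at log2 6 left AT2G43580 untested.

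The count of all called probe sets was 1814 in ABA+DFPM over ABA (4486 with the replicate block, 5276 without arrays numbered 3, 904 to 2280 with 1 array left out), 4165 in ABA over control (6982, 8364, 2402 to 4669), 2049 in ABA+DFPM over DFPM (5069, 7364, 806 to 3246) and 3463 in DFPM over control (6821, 7146, 1981 to 4032). With only the groups compared it was 862 in ABA+DFPM over DFPM and 2250 in DFPM over control, and with numbers 1 and 2 averaged and the replicate block it was 813 in ABA+DFPM over DFPM. Of the 6 other chitinases, 5 of 6 were called with the block in ABA+DFPM over ABA and in DFPM over control, 6 in ABA over control and 3 in ABA+DFPM over DFPM, and without arrays numbered 3 the counts were 5, 6, 6 and 5. With numbers 1 and 2 averaged 0 were called in ABA+DFPM over DFPM (limma), where 1 was higher and 2 were lower at an unadjusted p under 0.05. No share of all tested probe sets is given for that unadjusted threshold. With 1 array left out, 1 to 5 were called in ABA over control and 1 to 2 in ABA+DFPM over DFPM. Of the recomputed changes of the other named genes, 1200 kept their side of the threshold, 75 lost and 65 gained a call. The 1200 include changes that turned their sign where neither fit passed. The number of arrays limits these comparisons, and values under log2 4 hold little information on size.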
